A study of Mus musculus with 19 samples.

Results

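The 38 genes described here form the interferon response and MHC class I module of mouse hepatic stellate cells (HSCs). They were given as a list of symbols, from Irf1, Irf7, Irf9 and Stat2 through the antiviral effectors to B2m, H2-K1 and H2-D1. All 38 symbols were found among the 55487 gene identifiers of the count table. Of these, 37 passed the filter on low counts together with 15138 genes in all, and Mx1 was at 0 counts in all 19 samples.

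HSCs are the vitamin A storing cells of the liver, and they turn into matrix-producing myofibroblasts after injury or on plastic. The samples were HSCs of untreated healthy male Balb/c mice aged 23 to 24 weeks, sorted on the ultraviolet signal of vitamin A. They were collected directly (freshly isolated, 0 h, n = 2) or after culture on collagen in medium with 10% serum for 3, 6, 12, 18 or 96 h (n = 3 each) or 24 h (n = 2). Medium was changed at 3 h and 24 h, no interferon or other agent was added, and each sample pooled 2 technical repeats. The labels number the samples M1, M2 and M3 and give an isolation date, which M1 and M3 share and which differs for M2. What the number stands for is not given in the sources used here, and the p-values below measure the spread between these few samples.

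Interferons are secreted proteins that warn cells of infection. Type I interferons signal through the receptor chains Ifnar1 and Ifnar2 to a complex that includes Stat2 and Irf9 and binds the interferon-stimulated response element (ISRE) in promoters. Interferon gamma acts through the gamma-activated site (GAS) in promoters and induces Irf1. The genes that respond encode sensors of foreign RNA and DNA, proteins that block viral translation and assembly, the ubiquitin-like protein Isg15 and its enzymes, and GTPases that attack vacuoles with pathogens. They also include the proteasome subunits, peptide transporter and heavy and light chains that present peptides on MHC class I, which every nucleated cell carries. Many of these genes keep a basal level in healthy tissue without infection.

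Stretches of a few promoters are shown, since the response elements of this pathway lie there. Promoter windows from 250 bases before to 50 after the start (RefSeq, GRCm38.p6) were given for 30 of the 38 members. The core of the response element, 2 copies of GAAA with 2 bases of any kind between them, on either strand, was found in 15 of these 30 genes and in 3.99% of the 27025 genes with a window. The GAS motif TTCNNNGAA, which reads the same on both strands, was found in 8 of the 30 members (26.7%) and in 9.55% of all genes with a window. Either motif was present in 19 of 30, and matches of both motifs overlapped only in Bst2. The ISRE core was present in 5 of 5 GTPase genes with a window and in 1 of 6 genes of MHC class I and the immunoproteasome. The stretches below run 5′ to 3′ in the sense of the gene and end at the last base before the start. Capitals mark the ISRE core in the first 5 and the GAS motif in Irf1. They are the reference sequence, not the Balb/c allele.
Isg15 (chr4:156200819-156200938, minus strand): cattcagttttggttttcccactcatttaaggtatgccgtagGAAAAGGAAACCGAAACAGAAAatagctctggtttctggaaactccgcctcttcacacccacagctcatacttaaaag
Ifit1 (chr19:34640769-34640888, plus strand): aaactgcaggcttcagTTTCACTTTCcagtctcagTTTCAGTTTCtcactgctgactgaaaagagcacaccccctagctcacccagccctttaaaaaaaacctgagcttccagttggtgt
Gbp2 (chr3:142620543-142620662, plus strand): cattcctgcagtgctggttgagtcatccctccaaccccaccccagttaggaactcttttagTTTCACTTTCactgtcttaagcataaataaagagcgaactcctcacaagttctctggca
Igtp (chr11:58199436-58199555, plus strand): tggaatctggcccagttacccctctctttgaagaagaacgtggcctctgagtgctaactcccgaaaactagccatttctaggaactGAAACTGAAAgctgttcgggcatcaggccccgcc
B2m (chr2:122147537-122147686, plus strand): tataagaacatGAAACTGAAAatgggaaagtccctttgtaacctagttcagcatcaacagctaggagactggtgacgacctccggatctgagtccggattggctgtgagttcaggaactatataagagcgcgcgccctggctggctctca
Irf1 (chr11:53769894-53770013, plus strand): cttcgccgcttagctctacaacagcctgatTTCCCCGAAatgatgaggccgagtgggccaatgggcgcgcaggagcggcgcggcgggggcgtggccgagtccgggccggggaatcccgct
Isg15 held 3 overlapping matches of the core, beginning 78, 72 and 66 bases before the start. Ifit1 held 2 matches on the opposite strand, and B2m 1 match 139 bases before its start. A match is a description of the letters and was not tested as a binding site. Among the other members, Gbp3, Irgm1 and Oas1a also held overlapping cores close to the start.

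**Figure D1:**
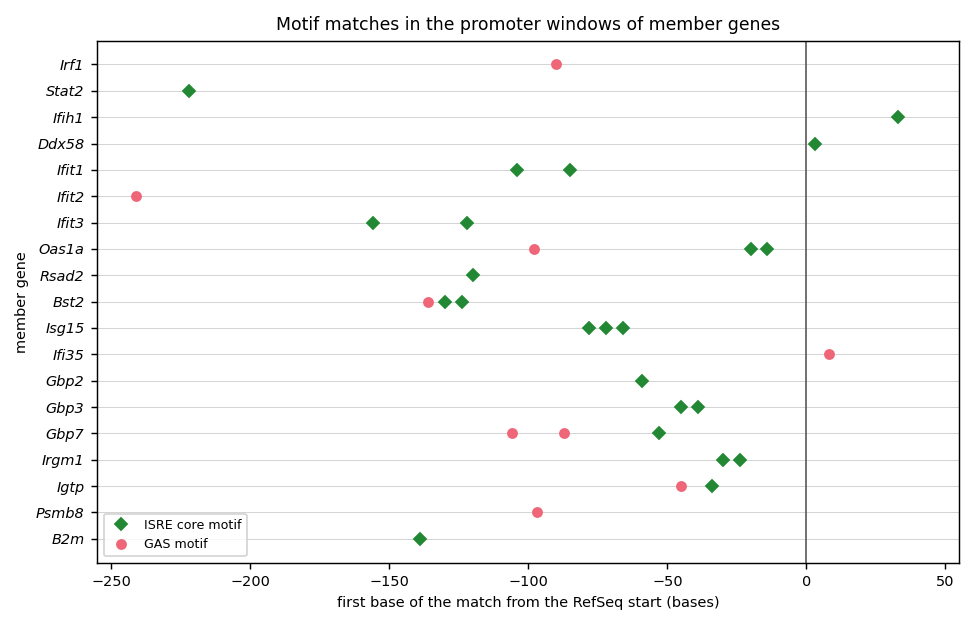
Position of each motif match in the 300-base promoter windows, in bases from the RefSeq start (x axis), for the 19 members with a match (y axis). Diamonds are matches of the ISRE core and circles are matches of the GAS motif; most matches lie upstream of the start.

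The labelled cell type was checked on marker genes. The HSC markers Dcn and Reln stood at 20148 and 18156 CPM and 2379 and 2217 CPM at 0 h, and Lrat, the enzyme that makes retinyl esters, at 1073 and 734 CPM. CPM is the count per 1000000 counts after TMM scaling of the library sizes, and values are given in the order of these numbers (M2 and M3 at 0 h, M1 and M2 at 24 h, otherwise M1, M2 and M3). All 16 HSC markers of the list summed to 38638 and 33117 CPM at 0 h, and 1 of them was at 0 counts in the 0 h sample M3. Markers of other cell types were detected at 0 h, at levels that differed from those in culture. The 16 Kupffer cell and macrophage markers summed to 624 and 513 CPM at 0 h, 553, 329.8 and 375 CPM at 3 h and 37.6, 53.8 and 42.5 CPM at 6 h. The Kupffer cell gene Clec4f had 62.6 and 61.2 CPM at 0 h and 104, 37.8 and 36.5 CPM at 3 h, and was at 0 in all samples at 6, 12, 18 and 96 h. Marco was at 0 in all samples. The 16 hepatocyte markers summed to 4940.1 and 9780.3 CPM at 0 h and 699.6, 609 and 1804 CPM at 3 h. The 16 sinusoidal endothelial markers summed to 1930.5 and 1382.4 CPM at 0 h and 7473, 2768 and 1953 CPM at 3 h. This sum was highest in M1 at each cultured time. In bulk samples, fewer cells of a type and less RNA per cell cannot be told apart. All of these cells can express interferon-stimulated genes, and their part in the levels below was not tested. Libraries held between 2073171 and 7690892 counts, and 3 counts corresponded to between 0.385 and 1.504 CPM.

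Most members had their highest mean 3 h after plating, and from 12 h on most lay below the level of freshly isolated cells. Of the 37 members tested, 29 (78.4%) had their highest mean at 3 h, against 15.4% of all genes tested. The lowest mean fell at 96 h for 19 members and at 12 h for 11. The summed level of the members outside MHC class I and the immunoproteasome was 3506 and 3889.5 CPM at 0 h and 8795, 5823 and 6221 CPM at 3 h. It was then at 2116, 1609.5 and 1446 CPM at 6 h and 669, 512 and 648 CPM at 12 h, and stood at 1012 and 782 CPM at 24 h and 486, 409 and 456 CPM at 96 h. The 6 genes of MHC class I and the immunoproteasome went from 11980.0 and 9680.5 CPM at 0 h to 4802, 5423 and 6570.5 CPM at 12 h and 1364, 2129 and 1440.3 CPM at 96 h.

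**Figure D2:**
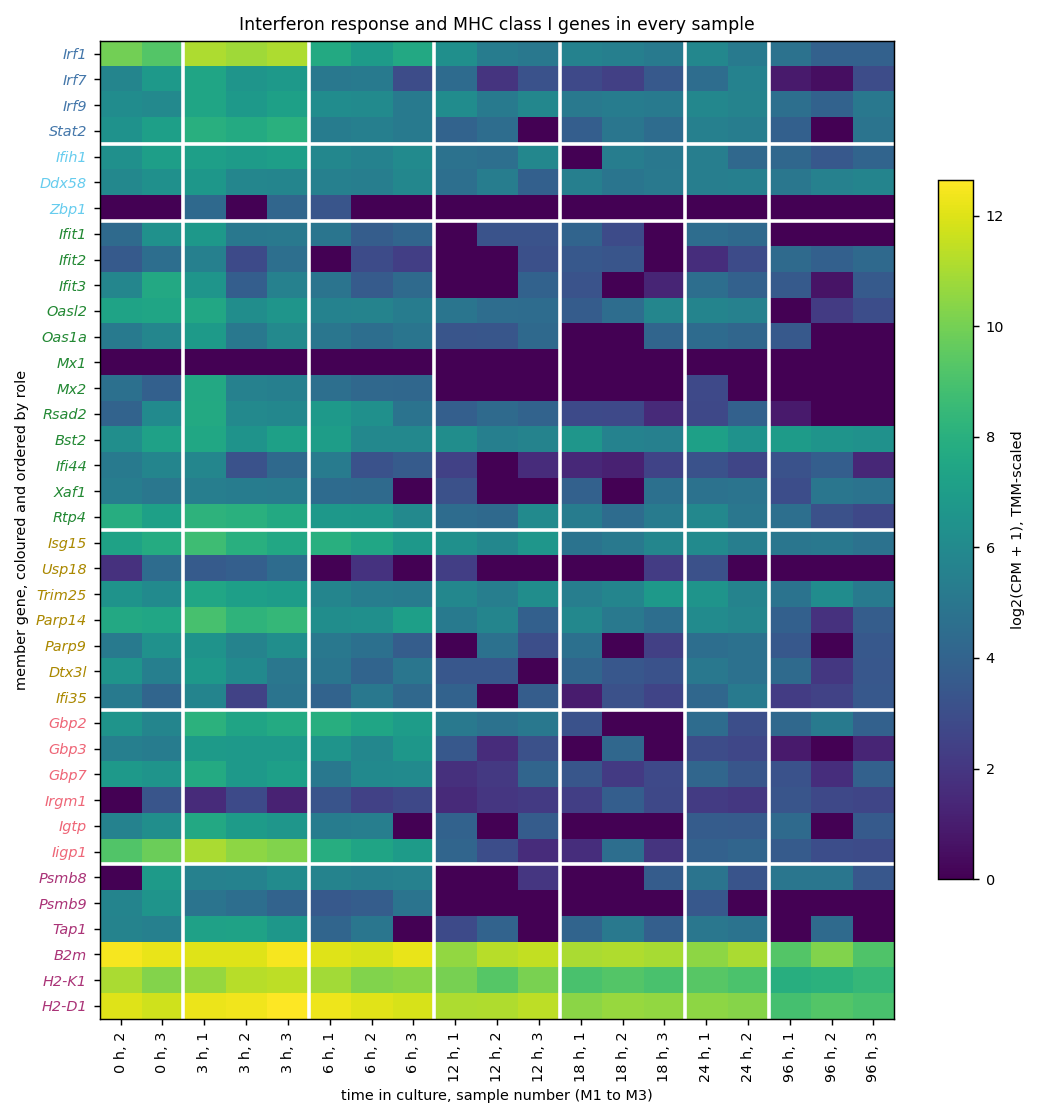
Level of every member (rows, ordered and coloured by role) in every sample (columns, time in culture and sample number), as log2(CPM + 1). The columns at 3 h are the brightest for most members, the columns from 12 h on are darker, and B2m, H2-K1 and H2-D1 keep the highest levels throughout.

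At 3 h, most members lay above their level at 0 h, but few differences were large against the spread. Against 0 h, 29 of 37 members had a log2 fold change above 0, compared with 7141 of all 15138 genes. The median was 0 over all genes and 0.54 over the members. This median was 0.98 without the 0 h sample M3, 0.35 without the 3 h sample M1 and 0.32 without all samples M1. The 3 h sample M1, which also held the most endothelial marker RNA, gave the highest of the 3 values for 29 members. The share of all genes highest in that sample is not given here, and a link between the 2 was not tested. Between the samples M2, alone on their isolation date, and between the samples M3, 18 members were higher at 3 h than at 0 h in both and 6 lower in both. For this agreement the share of all genes is not given here. All 3 samples at 3 h exceeded both samples at 0 h for 13 members, among them Irf1, Irf9, Stat2, Gbp2, Gbp3, Gbp7, Igtp, Iigp1, Parp14 and Tap1, or 35.1% against 17.1% of all genes. A gene was called where its adjusted p was under 0.1 and it changed more than 2-fold (edgeR quasi-likelihood test). By this rule, 1 member was called higher, Irf1, and 4.19% of all genes were. None was called lower, also by DESeq2 and at an unadjusted p below 0.05, with 1.39% of all genes. Psmb9 was the 1 member with all samples at 3 h below both at 0 h (18% of all genes).

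From 6 h on, every called member was lower than at 0 h. At 6 h, 1 member was called, Irf1 (4.35% of all genes were called lower). At 12 h, 15 of 37 were called lower (40.5%), against 9.1% of all genes. The counts were 18 at 18 h (background 8.21%), 8 at 24 h (3.86%) and 17 at 96 h (5.03%). No member was called higher at these times by edgeR or DESeq2 or at an unadjusted p below 0.05, whereas the shares of all genes called higher were 6.98%, 8.6%, 7.64%, 5.65% and 5.83% at 6, 12, 18, 24 and 96 h. Without the 0 h sample M3, Irgm1 was called higher at 6, 18 and 96 h, with 0 and 9.03 CPM in the 0 h samples. The median log2 fold change of the members was -0.92, -2.61, -2.52, -1.61 and -2.80 at the successive times from 6 to 96 h, while that of all genes lay between 0 and 0.07. All samples lay below both samples at 0 h for 30 members at 12 h (22.9% of all genes) and for 31 at 96 h (19.7%). These comparisons share the same 2 samples at 0 h. Of the 60 calls against 0 h, 40 held whichever single sample was left out. Without the 0 h sample M3, which had the smallest library, 9 members were called at 12 h and 5 at 24 h, and 5 at 24 h also without the 24 h sample M2. With M2 and M3 alone, a choice made after the endothelial markers had been seen, the count at 12 h was 9. Between the samples M2 and between the samples M3, 32 of 37 members were lower at 12 h than at 0 h in both, and none was higher in both. The share of all genes with such agreement is not given here, so these counts have no background.

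Most calls separated 12 h from 3 h. Against 3 h, 23 of 37 members (62.2%) were called lower at 12 h and none higher, also at an unadjusted p below 0.05 and with DESeq2, against 7.89% and 6.46% of all genes. This comparison was chosen after the levels at 3 h had been seen, and it does not use the samples at 0 h for its difference. The count was 14 without the 3 h sample M1, 15 without the 12 h sample M2 and 13 with M2 and M3 alone. The step from 3 to 6 h had 5 members called lower (Irf1, Irf9, Trim25, Parp14 and Iigp1; background 1.99%), and the step from 6 to 12 h had 5 (Irf1, Mx2, Gbp7, Iigp1 and Psmb9; 1.42%). Only the calls of Irf1 and Iigp1 held in both steps whichever sample was left out. The count from 3 to 6 h was 2 without the 3 h sample M1 and 3 without the 3 h or 6 h sample M3, and that from 6 to 12 h was 2 or 3 without any single sample at 0, 3, 6 or 12 h. Between 12 and 18 h and between 18 and 24 h no member was called (backgrounds higher 0.0727% and 0.0132%, lower 0.152% and 0.0264%). In each of these steps 5 members had an unadjusted p below 0.05, against 1301 and 1027 of all 15138 genes. DESeq2 called 2 lower from 12 to 18 h and 3 higher from 18 to 24 h. The backgrounds above are those of edgeR, and shares of all genes called by DESeq2 are not given here. From 18 to 24 h, 32 of 37 members had a log2 fold change above 0, against 7446 of all 15138 genes. The median was 0 over all genes and 0.88 over the members. Without the 24 h sample M1, which gave the higher of the 2 values at 24 h for 28 members, the median was 0.51 and 25 members lay above 0, and without all samples M1 it was 0.44 with 24 above 0. The share of all genes higher in M1 than in M2 at 24 h is not given here. The endothelial markers summed to 763 and 245 CPM in the samples M1 and M2 at 24 h, and their part in this step was not tested. From 24 to 96 h, 9 members were called lower (1.35%), and 11 at 96 h against 12 h (6.57%). No member was called higher in these comparisons by edgeR or DESeq2 (backgrounds 1.37% and 6.96%), and 0 and 1 had an unadjusted p below 0.05 in that direction. The count of 11 was 7 without the 96 h sample M2. The count from 24 to 96 h was 3 without either sample at 24 h, 3 without the 96 h sample M2 and 5 without the 96 h sample M3. Over all 7 times, 21 of 37 members differed at an adjusted p below 0.1, against 27.4% of all genes.

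**Figure D3:**
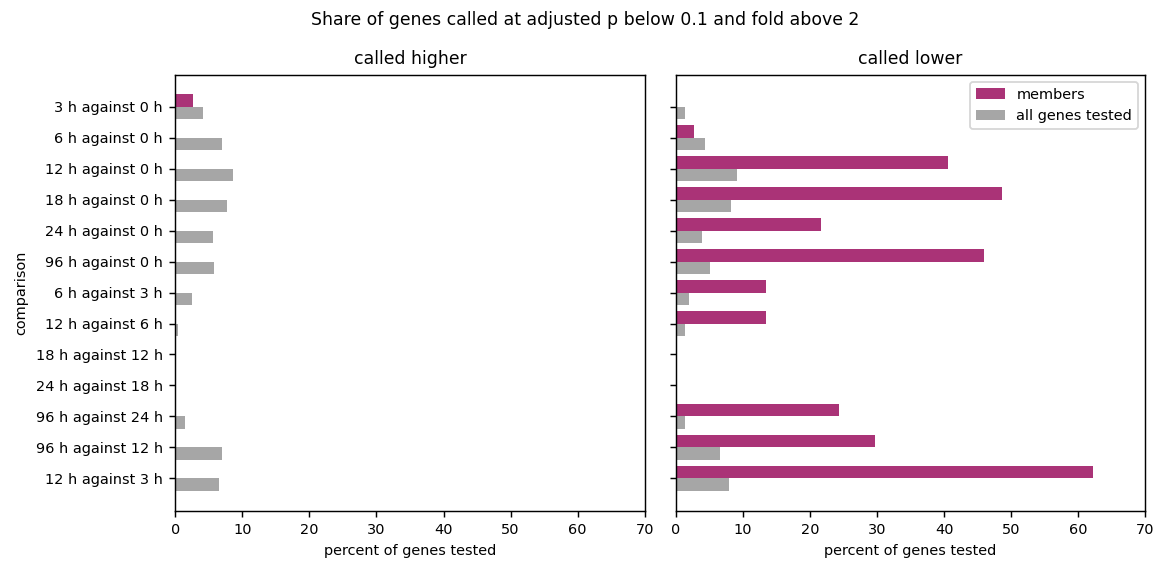
Percent of genes called higher (left) and lower (right) in each comparison (y axis), for the members (purple) and all genes tested (grey). The members' bars exceed the background among lower calls in 9 of 13 comparisons, up to 62.2% at 12 h against 3 h, and lie below it at 3 and 6 h against 0 h and in the steps from 12 to 18 h and from 18 to 24 h. Among higher calls they exceed it in none.

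Transcription factors of the module act on the promoters of other members. Irf1, which is induced by interferon gamma and by inflammatory signals, had 982 and 601 CPM at 0 h, 2156, 1797 and 2138 CPM at 3 h and 201, 123 and 197 CPM at 6 h. At 12 h, Irf1 had 78.6, 39 and 31.8 CPM, followed by 48.4, 42.6 and 35.9 CPM at 18 h, 57.6 and 35.3 CPM at 24 h and 25.8, 14.4 and 14.3 CPM at 96 h. The samples at 3 h were all above those at 0 h, and every later sample was below both groups. Its log2 fold change was 1.36 at 3 h (SE 0.39, adjusted p = 0.0622) and -3.99 at 12 h (SE 0.39, adjusted p = 3.08e-06). The call at 3 h was lost without the 0 h sample M3 (log2 fold change 1.04, adjusted p = 0.457) and without the 3 h sample M1 or M3, whereas the calls from 6 h on held in each case. Irf1 overlaps the gene Gm17334 on the opposite strand over 907 bases, and the counting of strand is not given in the sources used here.

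Irf7, the factor that amplifies type I interferon production, had 53.6 and 108 CPM at 0 h, 174, 96.5 and 109.8 CPM at 3 h and 32.9, 34.2 and 6.75 CPM at 6 h. At 12 h, Irf7 was at 20.1, 2.71 and 8.13 CPM, then at 5.84, 4.2 and 10.4 CPM at 18 h, 22.1 and 46.9 CPM at 24 h and 0.859, 0.384 and 6.73 CPM at 96 h. The samples at 24 h overlapped those at 6 h and lay above all samples at 12 and 18 h. Irf7 was lower at 12, 18 and 96 h (log2 fold change -4.88 at 96 h, SE 1.07, adjusted p = 0.00738) and not called at 24 h (-1.23, SE 1.08, adjusted p = 0.583). The call at 12 h was lost without the 0 h sample M3 or the 12 h sample M2 or M3, and that at 18 h without the 0 h sample M3 and with M2 and M3 alone. Irf9, the DNA-binding subunit of the type I interferon complex, changed least of the 4 factors at 12 h. It had 69.4 and 60.2 CPM at 0 h, 171, 109 and 146 CPM at 3 h and 70.5, 64.1 and 34.8 CPM at 6 h. Later, Irf9 stood at 68.9, 35.7 and 55.8 CPM at 12 h, 33.3, 39.1 and 35.3 CPM at 18 h, 56.8 and 49.2 CPM at 24 h and 23.5, 14.8 and 32.1 CPM at 96 h. The samples at 3 h were above both at 0 h (log2 fold change 1.13, SE 0.41, adjusted p = 0.168), those at 12 h overlapped them, and the fall was called at 96 h (-1.46, SE 0.39, adjusted p = 0.0263), a call lost without the 0 h sample M2 and with M2 and M3 alone.

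Stat2, another subunit of that complex, had 86.6 and 139 CPM at 0 h, 254, 214 and 256 CPM at 3 h and 38.5, 42.3 and 35.8 CPM at 6 h. Stat2 was then at 15.3, 22.2 and 0 CPM at 12 h, 12.9, 30 and 20.8 CPM at 18 h, 44.1 and 40.2 CPM at 24 h and 13.5, 0 and 28.1 CPM at 96 h. The groups at 0 and 3 h did not overlap, and from 6 h on all samples were below both. Stat2 was not called against 0 h at any time (at 12 h -3.18, SE 1.31, adjusted p = 0.127), but was lower at 12 h than at 3 h (-4.28, SE 1.31, adjusted p = 0.0445), a call lost without the 12 h sample M1.

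Of the sensors, Ddx58 (RIG-I), which detects viral RNA ends, was called against 0 h at 12 h. Ddx58 had 58.8 and 81.2 CPM at 0 h, 102, 55.1 and 53.3 CPM at 3 h and 44.7, 41.1 and 56.6 CPM at 6 h. Its levels at later times were 23.1, 39.5 and 13.5 CPM at 12 h, 42.6, 29.3 and 33.7 CPM at 18 h, 42 and 42.6 CPM at 24 h and 31.2, 46.1 and 50.5 CPM at 96 h. The samples at 12 h were below both at 0 h (log2 fold change -1.46, SE 0.45, adjusted p = 0.0396), and the call was lost without the 0 h or the 12 h sample M3 and with M2 and M3 alone. Ddx58 was also lower at 12 h than at 3 h (log2 fold change -1.47, SE 0.42, adjusted p = 0.0295), a call lost without the 3 h sample M1 or the 12 h sample M3 and with M2 and M3 alone. Ifih1 (MDA5), the sensor of long double-stranded RNA, was not called; it lay between 80.4 and 141 CPM at 0 and 3 h and at most at 65.1 CPM afterwards. Zbp1, a sensor of Z-form nucleic acid, was detected in 2 samples at 3 h (18.9 and 16.7 CPM, M1 and M3) and 1 at 6 h (9.18 CPM, M1), and was at 0 counts in the other 16 samples.

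Antiviral effectors made up the most members. The IFIT proteins bind viral RNA and block its translation. Ifit1 had 19.5 and 81.7 CPM at 0 h, 107, 32.3 and 33.3 CPM at 3 h and 29.3, 12.1 and 16.4 CPM at 6 h. At 12 h, Ifit1 was at 0, 8.3 and 8.26 CPM, with 15.6, 6.48 and 0 CPM at 18 h, 22.1 and 19.1 CPM at 24 h and 0 counts in all samples at 96 h. Taking 3 counts per library as the floor, Ifit1 was at least 78.3-fold lower at 96 h than at 0 h, and this call held whichever sample was left out. Ifit3 had 54.8 and 194 CPM at 0 h, 96.7, 12.9 and 46.1 CPM at 3 h and 28.4, 11.5 and 19.7 CPM at 6 h. Ifit3 was at 0, 0 and 14.5 CPM at 12 h, 8.52, 0 and 1.49 CPM at 18 h, 22.7 and 14.4 CPM at 24 h and 10.9, 0.577 and 10.9 CPM at 96 h. Both samples at 0 h exceeded all samples from 6 h on, but they differed widely from each other, and the call at 18 h was lost in 14 of the 19 fits that left out 1 sample. Ifit2 was not called and lay between 0 and 44.1 CPM.

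Oasl2, which belongs to the family of oligoadenylate synthetases that detect double-stranded RNA, had 162 and 169 CPM at 0 h, 189, 72 and 95.4 CPM at 3 h and 48.3, 50 and 39 CPM at 6 h. From 12 h, Oasl2 had 29.1, 21.7 and 21.5 CPM, then 11.9, 22.2 and 55.4 CPM at 18 h, 50.8 and 45.4 CPM at 24 h and 0, 3.65 and 6.9 CPM at 96 h. Every sample from 6 h on was below both at 0 h, and Oasl2 was called at 12, 18 and 96 h (log2 fold change -5.51, SE 0.92, adjusted p = 0.000843 at 96 h). The call at 12 h was lost without either 0 h sample, and that at 18 h without either 0 h sample or the 18 h sample M1 or M2. Mx2, a dynamin-like GTPase of the Mx family, had 24.3 and 13.5 CPM at 0 h, 195, 46.2 and 42.6 CPM at 3 h and 23.4, 18.1 and 17.5 CPM at 6 h. It was at 0 counts in all samples at 12, 18 and 96 h and at 6 and 0 CPM at 24 h. Mx2 was thus at least 35.4-fold lower at 12 h than at 0 h and at least 178-fold lower than at 3 h. The gene annotation lists Mx2 as a polymorphic pseudogene, so its transcript may not encode a working protein in these mice. Its relative Mx1 was at 0 counts throughout, and most laboratory mouse strains carry a defective Mx1.

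Rsad2 (viperin), which makes a chain-terminating nucleotide, had 15 and 65.7 CPM at 0 h, 206, 60.3 and 57 CPM at 3 h and 115, 80.2 and 27 CPM at 6 h. Rsad2 was at 13.4, 20 and 15.2 CPM at 12 h, 6.08, 5.96 and 1.86 CPM at 18 h, 5.57 and 14.4 CPM at 24 h and 0.859, 0 and 0 CPM at 96 h. The 3 samples at 96 h held 3 counts together, so the ratio of 0 h to 96 h was 156 with an exact 95% interval of counting error from 52.5 to 761. The samples at 3 and 6 h overlapped those at 0 h. Its call at 18 h was lost without the 0 h or 18 h sample M3. Ifi44, an interferon-induced protein of unsettled function, had 36.1 and 53.7 CPM at 0 h, 54.3, 8.14 and 18.7 CPM at 3 h and 37.6, 8.14 and 11.5 CPM at 6 h. Ifi44 stood at 4.39, 0 and 2 CPM at 12 h, 1.7, 1.23 and 4.83 CPM at 18 h, 8.14 and 5.26 CPM at 24 h and 8.02, 12.9 and 1.68 CPM at 96 h. Its samples at 3 and 6 h overlapped those at 0 h, those at 12 h and later were below them, and its calls at 12 and 18 h were lost without the 0 h sample M3.

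Rtp4, a chaperone of membrane receptors that interferon induces, had 229.6 and 143 CPM at 0 h, 288, 261 and 203 CPM at 3 h and 106, 100.5 and 60.2 CPM at 6 h. Rtp4 was at 20.8, 18.6 and 66.1 CPM at 12 h, 38.9, 21 and 37.7 CPM at 18 h, 58.5 and 31.1 CPM at 24 h and 23.8, 7.69 and 5.72 CPM at 96 h. It was called lower at each time from 12 h on (log2 fold change -3.92, SE 0.63, adjusted p = 0.000627 at 96 h). The call at 12 h was lost without the 0 h sample M2, and that at 24 h in 10 of the 19 fits that left out 1 sample, with M2 and M3 alone and under library size scaling. Rtp4 overlaps Masp1 on the opposite strand over 525 bases, and Masp1 held 90136 counts against 7142 for Rtp4. The effectors Bst2, which tethers virions to the cell, Oas1a and Xaf1 were not called against 0 h. Bst2 was at 73.9 and 150.4 CPM at 0 h and 120.3, 90.9 and 82.9 CPM at 96 h, so that these groups overlapped.

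Isg15, the ubiquitin-like modifier, had 153 and 220.1 CPM at 0 h, 412, 253 and 192 CPM at 3 h and 249, 175 and 106 CPM at 6 h. Isg15 was at 81.2, 56.7 and 99.9 CPM at 12 h, 27, 33.6 and 55.6 CPM at 18 h, 65.8 and 40.7 CPM at 24 h and 30.4, 32.7 and 26.4 CPM at 96 h. Samples at 3 and 6 h overlapped those at 0 h, and all samples from 12 h on were below both. The log2 fold change was -1.23 at 12 h (SE 0.41, adjusted p = 0.0558), a call that was lost without the 0 h sample M3 or the 12 h sample M1 or M2, and -2.64 at 96 h (SE 0.42, adjusted p = 0.000513). Its call at 24 h was lost without the 0 h sample M3 or the 24 h sample M2. Parp14, an ADP-ribosyltransferase that modifies interferon and interleukin 4 responses, had 194 and 176 CPM at 0 h, 491, 296 and 338 CPM at 3 h and 72, 76.4 and 142 CPM at 6 h. Parp14 was at 34.2, 53.7 and 13.9 CPM at 12 h, 58.7, 33.8 and 22.9 CPM at 18 h, 67.3 and 53.8 CPM at 24 h and 13.5, 2.5 and 12.3 CPM at 96 h. All samples at 3 h were above both at 0 h and all samples from 6 h on below them. Its calls at 12 h (log2 fold change -2.45, SE 0.60, adjusted p = 0.0105), 18 h and 96 h held whichever sample was left out.

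Dtx3l, the ubiquitin ligase that partners Parp9, had 92.1 and 43.1 CPM at 0 h, 104, 63.9 and 31.7 CPM at 3 h and 29, 16.1 and 30.3 CPM at 6 h. Dtx3l was at 9.95, 9.82 and 0 CPM at 12 h, 16.3, 9.81 and 8 CPM at 18 h, 32.6 and 25.2 CPM at 24 h and 19.8, 3.08 and 9.76 CPM at 96 h. It was called at 12 h, and the call was lost without either 0 h sample or without the 12 h sample M1 or M2. Parp9, which overlaps Dtx3l over 682 bases on the opposite strand, lay below both 0 h samples from 6 h on in every sample but was not called. Trim25, the ligase that activates RIG-I, Usp18, the protease that removes Isg15, and Ifi35 were not called against 0 h. Trim25 had 179, 140.0 and 126 CPM at 3 h and 52.7, 39.9 and 37.4 CPM at 6 h, and this fall was called (log2 fold change -1.78, SE 0.44, adjusted p = 0.0318) but was lost without the 3 h sample M1 or the 6 h sample M3. Usp18 reached at most 21.3 CPM.

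**Figure D4:**
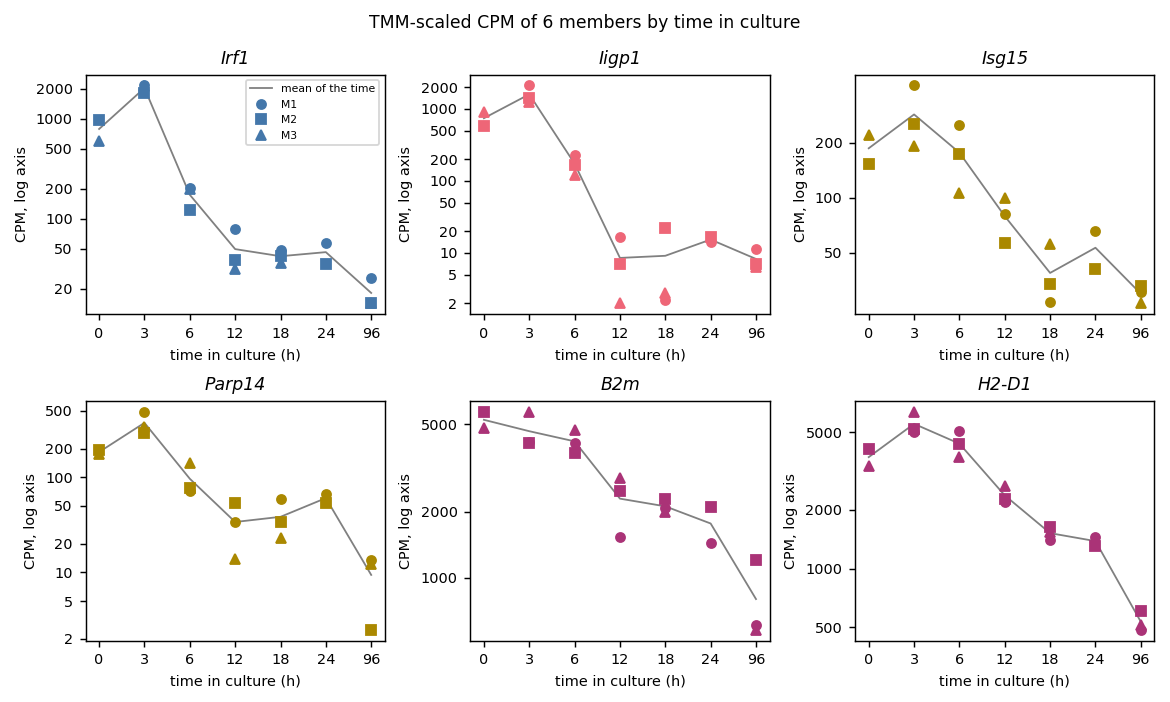
TMM-scaled CPM (y axis, log scale) of Irf1, Iigp1, Isg15, Parp14, B2m and H2-D1 against time in culture (x axis, evenly spaced times), with a point for each sample, shaped by its number, and a line through the means. Irf1 and Iigp1 peak at 3 h and drop by 12 h; B2m and H2-D1 reach their lowest values at 96 h.

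The interferon-inducible GTPases coat and break vacuoles that hold pathogens. Iigp1 (Irga6), an effector of this family, showed the widest range. Iigp1 had 585 and 897 CPM at 0 h, 2112, 1433 and 1227 CPM at 3 h and 232, 166 and 122 CPM at 6 h. By 12 h, Iigp1 was at 16.7, 6.94 and 2 CPM, with 2.19, 22.4 and 2.79 CPM at 18 h, 14.1 and 16.6 CPM at 24 h and 11.5, 6.92 and 6.39 CPM at 96 h. All samples at 3 h were above both at 0 h (log2 fold change 1.10, SE 0.78, adjusted p = 0.541), and all samples from 6 h on were below them. The log2 fold change was -6.47 at 12 h (SE 0.88, adjusted p = 8.74e-05), and its calls at 12, 18, 24 and 96 h held whichever sample was left out. Iigp1 and the other GTPases have close relatives, so reads may be split between copies.

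Among the guanylate-binding proteins, Gbp2 and Gbp3 were still above 0 h at 6 h. Gbp2 had 92.4 and 53.7 CPM at 0 h, 279, 165 and 212 CPM at 3 h and 239, 171 and 126 CPM at 6 h. Gbp2 then had 33.3, 26.2 and 32.2 CPM at 12 h, 8.03, 0 and 0 CPM at 18 h, 21 and 7.19 CPM at 24 h and 18, 35.2 and 14 CPM at 96 h. Every sample at 3 and 6 h was above both at 0 h, as for Gbp3, and these were the only 2 members of which this was true at 6 h (17.7% of all genes). Gbp3 had 42.6 and 38.6 CPM at 0 h, 117, 112 and 112 CPM at 3 h and 92.4, 56.6 and 101 CPM at 6 h. Gbp3 was at 10.2, 2.03 and 7.73 CPM at 12 h, 0, 17.7 and 0 CPM at 18 h, 6.64 and 5.52 CPM at 24 h and 0.859, 0 and 1.51 CPM at 96 h. Neither rise was called (Gbp2 at 3 h: log2 fold change 1.58, SE 1.08, adjusted p = 0.528). Gbp2 was called lower at 18 h and Gbp3 at 96 h. The call of Gbp3 was lost without the 0 h sample M2 or the 96 h sample M1 or M2.

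Gbp7 had 108 and 91.8 CPM at 0 h, 213, 111 and 140.2 CPM at 3 h and 32.6, 63.5 and 65.7 CPM at 6 h. Gbp7 was at 2.31, 3.22 and 16.4 CPM at 12 h, 9.49, 3.5 and 5.95 CPM at 18 h, 17.1 and 9.37 CPM at 24 h and 8.02, 2.11 and 14.1 CPM at 96 h. It was called lower at each time from 12 h on (log2 fold change -3.76, SE 0.81, adjusted p = 0.00459 at 12 h). The call at 24 h was lost without any one of the samples at 0 or 24 h and with M2 and M3 alone, and the others against 0 h were kept in each of these fits. Igtp (Irgm3), a regulator of this GTPase family, had 47.1 and 74.7 CPM at 0 h, 193, 123 and 97.8 CPM at 3 h and 38.5, 41.5 and 0 CPM at 6 h. Igtp had 14.6, 0 and 11.6 CPM at 12 h, 0 counts in all samples at 18 h, 12 and 11.3 CPM at 24 h and 19.8, 0 and 10.8 CPM at 96 h. At 18 h it was at least 101-fold lower than at 0 h, a call lost with M2 and M3 alone, and the other times were not called. Igtp shares 7974 bases of its gene with Irgm2 on the same strand. The related regulator Irgm1 was at or below 12.8 CPM in every sample and was not called.

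B2m and both heavy chains held the highest levels of all members, and had their lowest means at 96 h. B2m, the light chain of every class I molecule, had 5664 and 4825 CPM at 0 h, 4155, 4096 and 5709 CPM at 3 h and 4126, 3698 and 4723 CPM at 6 h. B2m was at 1531, 2492 and 2849 CPM at 12 h, 2068, 2273 and 1998 CPM at 18 h, 1436 and 2093 CPM at 24 h and 609, 1205 and 578 CPM at 96 h. Samples at 3 h overlapped those at 0 h, and all later samples were below both. The log2 fold change of B2m was -1.20 at 12 h (SE 0.30, adjusted p = 0.0122), a call lost without the 12 h sample M1, and -2.72 at 96 h (SE 0.31, adjusted p = 2.28e-05). The classical heavy chain H2-K1 had 2118 and 1246 CPM at 0 h, 1576, 2472 and 2639.9 CPM at 3 h and 1879.8, 1232 and 1344 CPM at 6 h. H2-K1 was at 1061, 635 and 1082 CPM at 12 h, 523, 603 and 512 CPM at 18 h, 646 and 528 CPM at 24 h and 239, 269 and 339 CPM at 96 h. It was called at 18, 24 and 96 h (-2.57 at 96 h, SE 0.29, adjusted p = 2.32e-05).

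H2-D1, the other heavy chain of the list, had 4098 and 3358 CPM at 0 h, 4989.5, 5206 and 6369.7 CPM at 3 h and 5045, 4332 and 3733 CPM at 6 h. H2-D1 was at 2204, 2281 and 2636 CPM at 12 h, 1395, 1625 and 1540.5 CPM at 18 h, 1457 and 1310.5 CPM at 24 h and 487, 604 and 513 CPM at 96 h. Each sample at 3 h exceeded both at 0 h (log2 fold change 0.57, SE 0.17, adjusted p = 0.0685), and each from 12 h on was below them. H2-D1 was called lower at 18, 24 and 96 h (-2.80 at 96 h, SE 0.16, adjusted p = 2.63e-08) and again from 24 to 96 h (-1.37, SE 0.16, adjusted p = 0.000187). The last was the only one of the 9 calls between 24 and 96 h that held whichever sample was left out. H2 genes are near-identical copies, and the Balb/c alleles differ from the reference genome, so the split of reads between them is uncertain.

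The immunoproteasome subunits cut proteins into peptides that fit class I. Psmb9 had 50.8 and 91.3 CPM at 0 h, 28.5, 22.7 and 15 CPM at 3 h and 10.7, 12.3 and 28.5 CPM at 6 h. It was at 10.3 and 0 CPM at 24 h and at 0 counts in all samples at 12, 18 and 96 h, at least 133-fold lower at 12 h than at 0 h. Psmb8 had 0 and 116 CPM at 0 h, 46.7, 48.1 and 67.4 CPM at 3 h and 49.5, 43.5 and 46.2 CPM at 6 h. Psmb8 was at 0, 0 and 2.93 CPM at 12 h, 0, 0 and 11.7 CPM at 18 h, 28.1 and 8.86 CPM at 24 h and 30.1, 30.4 and 9.76 CPM at 96 h. Its 0 h samples differed from each other across the whole range of the gene, the groups overlapped, and the call at 12 h was lost in 14 of the 19 fits that left out 1 sample and under DESeq2. Psmb9 overlaps Tap1 on the opposite strand over 212 bases. Tap1, one chain of the transporter that carries these peptides into the endoplasmic reticulum, was not called. It was at 48.8 and 43.6 CPM at 0 h, 149, 155 and 101 CPM at 3 h, 16.6, 30 and 0 CPM at 6 h and 0, 19.8 and 0 CPM at 96 h.

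The rest of the pathway was read from lists of other genes. For every list, the shares of all genes called were 4.19% higher and 1.39% lower at 3 h, 8.6% and 9.1% at 12 h, and 5.83% and 5.03% at 96 h. None of the 13 interferon ligand genes, type I, II and III with Il27 and Ebi3, passed the filter, and their summed level was at most 0.859 CPM in any sample. Of 20 tested genes for interferon receptors and JAK-STAT signalling, 4 were called higher and 1 lower at 3 h, 1 higher and 2 lower at 12 h, and 7 lower at 96 h. Stat3, which transmits interleukin 6 signals, had 208 and 325 CPM at 0 h and 1359.5, 1509 and 1599 CPM at 3 h (log2 fold change 2.48, SE 0.31, adjusted p = 0.000118). Jak2, a kinase of the interferon gamma receptor, had 57.3 and 65.7 CPM at 0 h and 216, 295 and 314 CPM at 6 h (2.16, SE 0.36, adjusted p = 0.000913). Ifnar2 had 497 and 381 CPM at 0 h and 863, 985 and 847 CPM at 3 h, where it was called higher (1.03, SE 0.18, adjusted p = 0.00284), and 113, 104 and 129 CPM at 96 h, where it was called lower. Irf2, a repressor that competes with Irf1, was lower at 96 h (-2.21, SE 0.25, adjusted p = 2.28e-05).

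Of 22 tested genes of nucleic acid and endotoxin sensing, 2 passed as higher at each of 3 and 6 h (9.1% of the list, against 4.19% and 6.98% of all genes), and at most 1 in each direction later. Myd88, the adaptor of most Toll-like receptors, had 48.3 and 22.1 CPM at 0 h and 152, 179 and 176 CPM at 3 h (2.25, SE 0.37, adjusted p = 0.00137). Trim56, a ligase of this pathway, had 129 and 127 CPM at 0 h, 431, 383 and 330.4 CPM at 3 h and 338, 464 and 369 CPM at 6 h and was called higher at both cultured times. Traf6, a ligase downstream of Myd88, was called higher at 6, 12 and 18 h, with 0 and 2.51 CPM at 0 h and 35.8, 33.8 and 25.9 CPM at 6 h, and Irak1 was lower at 96 h (-1.41, SE 0.37, adjusted p = 0.0244).

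A wider list of 81 interferon-stimulated genes, of which 72 were tested, was read in the same way. Its median log2 fold change was 0.57 at 3 h, -2.02 at 12 h and -1.84 at 96 h. At 3 h, 4 genes were called higher (5.6%, against 4.19% of all genes). At 12 h, 3 were higher (4.2%, against 8.6%) and 25 lower (34.7%, against 9.1%), and at 96 h, 21 were lower (29.2%, against 5.03%). Cxcl10, a chemokine for T cells, had 631 and 437 CPM at 0 h, 673, 379.6 and 407 CPM at 3 h, 37.7, 23.4 and 35 CPM at 12 h and 6.59, 0.769 and 0.673 CPM at 96 h. Ifitm1, a membrane protein that blocks viral entry, had 1332 and 875 CPM at 0 h and 24.6, 21.3 and 39.7 CPM at 96 h. Lgals3bp, a secreted glycoprotein, had 493 and 501 CPM at 0 h and 117, 89.4 and 77.9 CPM at 12 h. Pml, the scaffold of nuclear bodies, went down and then up, with 108 and 139.9 CPM at 0 h, 11.8, 8.47 and 5.2 CPM at 12 h and 110.1 and 104 CPM at 24 h. It was called lower at 6, 12 and 18 h and called higher from 12 to 18 h (1.93, SE 0.32, adjusted p = 0.017).

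Of 33 tested genes of MHC class I and antigen processing outside the members, 1 was called higher and 8 lower at 12 h, and 7 were called lower at 96 h. At 3 h, 1 was called higher and 1 lower, 16 of 33 lay above 0 (7141 of all 15138 genes), and the median log2 fold change was 0. H2-Q7, a nonclassical class I gene, had 96.1 and 109 CPM at 0 h, 285, 339 and 323 CPM at 3 h and 6.59, 8.27 and 10.1 CPM at 96 h. It was called higher at 3 h (1.62, SE 0.35, adjusted p = 0.0125) and lower at 96 h. H2-T23, which encodes the ligand of an inhibitory natural killer receptor, had 52.1 and 33.6 CPM at 0 h and 4.14, 2.28 and 2.79 CPM at 18 h, and H2-T22 had 75.6 and 119 CPM and 16.5, 11.6 and 17.3 CPM. Psme1, a subunit of the proteasome activator that interferon induces, had 160.0 and 94.8 CPM at 0 h and 13.1, 5.08 and 11 CPM at 18 h (-3.71, SE 0.49, adjusted p = 6.21e-05). MHC class II genes, which mark antigen-presenting leukocytes, had 6 of 10 tested, with 2 called lower at 12 h and at 96 h. Cd74, the class II invariant chain, had 43.1 and 18.6 CPM at 0 h, 35.8, 32.8 and 38.3 CPM at 3 h and 2.08, 0 and 0.4 CPM at 12 h. H2-Eb1 had 49.8 and 0 CPM at 0 h and 37.8, 16 and 32.4 CPM at 3 h and was at 0 in all samples from 6 h on.

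Levels of other cell types also changed over these times, and at 3 h not all in the same direction. Of 13 tested Kupffer cell and macrophage markers, none was called at 3 h, 4 were lower at 6 h, 6 at 12 h and 7 at 96 h. Between 3 and 6 h, 4 of these markers were called lower, as were Irf1 and Iigp1, whereas B2m, H2-K1 and H2-D1 were not called (log2 fold changes from 3 to 6 h of -0.15, -0.59 and -0.34, adjusted p = 0.871, 0.285 and 0.272). HSC markers fell as well, with 13 of 16 called lower at 12 h, as did 11 of 16 hepatocyte markers. Of 16 endothelial markers, 1 was called lower at 12 h and 4 at 96 h, and 4 at 12 h against 3 h. The shares of all genes called lower were 9.1%, 5.03% and 7.89%. Median log2 fold changes of the endothelial markers were -2.26, -3.75 and -3.28 in these comparisons, against -2.61, -2.80 and -3.34 over the members. At 12 h against 0 h, the median was -3.60 for HSC, -5.12 for hepatocyte and -6.44 for Kupffer cell markers. At 3 h, when the members peaked, the summed Kupffer markers were 553, 329.8 and 375 CPM against 624 and 513 CPM at 0 h. Of the samples at 3 h, M1 gave the highest value for 29 of 37 members, and the share of all genes is not given here. The endothelial sum at 3 h was 7473 CPM in M1. It was 2768 and 1953 CPM in M2 and M3, and 1930.5 and 1382.4 CPM at 0 h. At 3 h, 15 of 16 endothelial markers had a log2 fold change above 0 (7141 of all 15138 genes), and none of these markers was called. Their median was 1.19, against 0.54 over the members. For hepatocyte markers this median was -2.82 with 0 of 16 above 0, and for Kupffer markers -0.40 with 3 of 13. The share of counts from the mitochondrial chromosome was 12.67% to 13.98% at 0 h and lower in every cultured sample. The part of these shifts in the members' levels was not tested. Between the numbers M1 to M3, no member differed at an adjusted p below 0.1 (edgeR, 0.0528% of all genes), and Irf1 and Bst2 had an unadjusted p below 0.05.

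**Figure D5:**
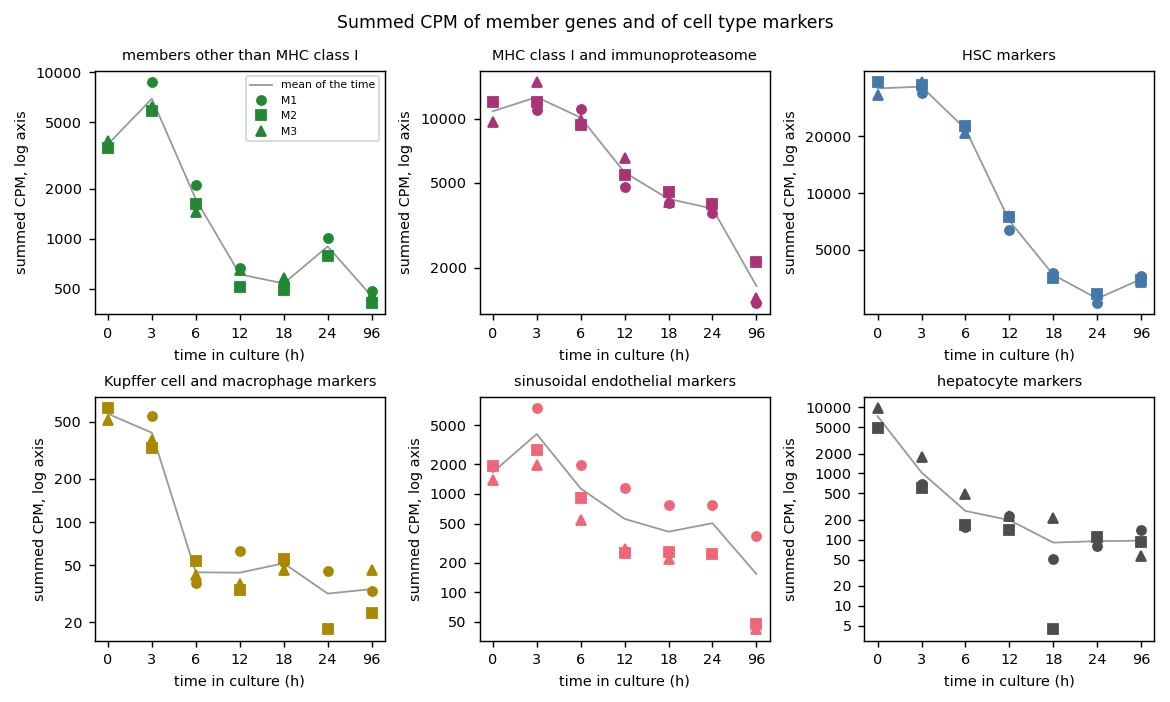
Summed CPM (y axes, log scale, each panel with its own range) of 2 groups of members and of 4 lists of cell type markers against time in culture (x axis, evenly spaced times), a point per sample, shaped by its number, with a line through the means. Members other than MHC class I peak at 3 h, as does the mean of the endothelial markers, and Kupffer cell markers drop at 6 h. Endothelial markers are highest in M1 at each cultured time.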

How the data were processed

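RNA was measured with a 3′ tag kit (QuantSeq FWD) in bulk HSCs. What the authors deposited is a table of unnormalized counts by gene; STAR, StringTie and the build mm10 are named in the submitters' processing notes, and the counting tool and its strand setting are not given in the sources used here. A 3′ tag counts a transcript once at its end, so alleles or copies with the same end cannot be separated.

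Symbols came from GENCODE M21 (GRCm38) and promoter windows from RefSeq. Counts were filtered by filterByExpr with the times as groups (15138 genes), scaled by TMM and tested in one fit of 19 samples with the quasi-likelihood F test of edgeR 4.0.16 (R 4.3.3), with Benjamini-Hochberg adjustment per comparison. Standard errors are the log2 fold change divided by the root of F. DESeq2 1.42.0 was an alternative. The common biological coefficient of variation was 1.06. Tables and plots used Python 3.11.15, pandas 2.3.3, scipy 1.17.1 and matplotlib 3.10.9.

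The members and lists were chosen with earlier results of these data known. Named genes were each member called against 0 h at any time, the 3 with the highest mean CPM, the 4 transcription factors and, of each pathway list, at most the 4 called genes with the lowest adjusted p. Fits were tested on simulated counts. Each sample was left out in turn; other scalings, filters, covariates, thresholds and sample sets were alternatives.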

Additional observations from a re-analysis of the deposited data

How the results depend on the processing

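No called fold change of a member changed sign under any alternative run, with 1 exception. Psmb8 at 12 h against 0 h (log2 fold change -5.78) was at 5.38 (adjusted p = 0.548) without the 0 h sample M3, where the remaining 0 h sample held 0 counts. It was at -11.08 without the 12 h sample M3, where the remaining 12 h samples held 0 counts, so neither value bounds the change. Of the 113 called values of members, 2 to 6 lost the call under each alternative that kept all samples in the fit. The call was lost for 22 of 112 in fits of only the 2 groups compared and for 41 with M2 and M3 alone. On leaving out a sample, 225 of 2147 were lost. Calls of the named genes outside the members were not checked in these runs. Shares of all genes called under each alternative are not given here. The moved counts therefore do not show whether members shifted more than other genes. Counts of called members outside a factor of 1.5 were as follows.

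DESeq2 called 2 members higher at 3 h against 0 h and 3 higher at 24 h against 18 h. It called 3 lower at 6 h against 0 h, 10 at 12 h against 6 h and 2 at 18 h against 12 h. Fits of only the 2 groups compared called 7 higher at 3 h and 1 higher at 6 h against 0 h. They called 5 lower at 6 h and 14 at 24 h against 0 h, 11 at 6 h against 3 h, 3 at 96 h against 24 h and 5 at 96 h against 12 h. An adjusted p below 0.05 left 0 members higher at 3 h, and lower 3 at 6 h against 3 h, 2 at 12 h against 6 h, 4 at 96 h against 24 h and 15 at 12 h against 3 h. M2 and M3 alone, added after seeing the data, gave lower 2 at 6 h and 9 at 12 h against 0 h, 1 at 6 h against 3 h, 3 at 12 h against 6 h, 1 at 18 h against 12 h, 3 at 96 h against 24 h and 13 at 12 h against 3 h, and higher 1 at 24 h against 18 h. Thinning all samples to the smallest library gave 3 lower at 6 h against 0 h and 1 higher at 96 h against 12 h. The sample number (M1 to M3) as a replicate block gave 2 lower at 6 h against 0 h and 1 higher at 96 h against 12 h, and moved no other count by more than a factor of 1.5. Same-numbered samples share a number and an isolation date, and M1 and M3 have the same date. Residuals of same-numbered samples correlated at a mean of 0.017 (51 pairs, at most 0.098), against -0.0084 for 103 other pairs. Of the 19 samples, 14 correlated best with one of their own number, which the main fit did not include. No filter on low counts gave 2 lower at 6 h against 0 h. Library size scaling, the isolation date and a fold limit of 1.5 moved none, although library size scaling shifted the median of all genes to 0.24 at 24 h and 0.22 at 96 h.

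Leaving out each sample in turn gave 0 to 1 members higher at 3 h against 0 h, and lower 1 to 2 at 6 h, 9 to 17 at 12 h, 13 to 19 at 18 h, 5 to 10 at 24 h and 15 to 19 at 96 h. Against 3 h it gave 2 to 5 lower at 6 h and 14 to 25 at 12 h. The ranges were 2 to 6 for 12 h against 6 h, 0 to 1 for 18 h against 12 h, 3 to 9 for 96 h against 24 h and 7 to 11 for 96 h against 12 h. The 12 h sample M1 or M3, left out, decided the members higher at 96 h against 12 h (1 and 3), and the 18 h sample M1 the 1 higher at 24 h against 18 h. Members called higher ranged from 0 to 1 at 6, 18 and 96 h against 0 h and at 24 h against 18 h, and from 0 to 3 at 96 h against 12 h. A single sample decided several: without the 0 h sample M3, 9 members were lower at 12 h and 5 at 24 h against 0 h, and without the 24 h sample M2, 5 were at 24 h. The members that differed over the 7 times numbered 18 to 23, and those that differed between the numbers M1 to M3 0. Where a sample left alone stands for a time, it was assumed to vary like the other groups. The cause of these shifts was not tested. With 2 or 3 samples a time and a floor of up to 1.504 CPM, changes of the lowly counted members are not resolved, and fold changes against groups at 0 counts are bounds.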

Other observations

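Some genes outside the naming rule, chosen after their values were seen, add to the account of the pathway. Socs3, the feedback inhibitor of interleukin 6 and interferon signalling, was at 1751 and 1286 CPM in freshly isolated cells and at 406, 407 and 393 CPM at 3 h, and was called lower from 6 h on (log2 fold change -3.65, SE 1.01, adjusted p = 0.0305 at 6 h). Both samples at 0 h were above all cultured samples. Nlrc5, the transactivator of MHC class I genes, was at 18 and 13 CPM at 0 h and 50.7, 26.1 and 38.3 CPM at 3 h, and was called lower at 12 and 96 h, with 0 counts in all samples at 96 h. Its difference at 3 h was not called (log2 fold change 1.30, SE 1.48, adjusted p = 0.768), although the groups did not overlap (17.1% of all genes higher). The receptor chain Ifngr1 was at 56.6 and 51.6 CPM at 0 h and 48.4, 49.6 and 39.4 CPM at 96 h and was not called against 0 h at any time. Tap2, the partner of Tap1, was at 61.6 and 119 CPM at 0 h and 0, 18.1 and 0 CPM at 12 h and was not called against 0 h at any time.

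While the members of MHC class I fell, the summed level of the other genes of antigen processing, which include general chaperones of the endoplasmic reticulum and the constitutive proteasome, was 3624 and 3764 CPM at 0 h, 1927, 2566 and 2232 CPM at 12 h and 3545, 3338 and 3571 CPM at 96 h. Of the 33 tested, 4 were called higher (12.1%, against 6.96% of all genes) and 5 lower (15.2%, against 6.57%) at 96 h against 12 h.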
